A study of Mus musculus with 5 samples.

Results

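The genes described here encode enzymes that remove superoxide and hydrogen peroxide and the thioredoxin system, which recharges most peroxiredoxins. They are the superoxide dismutases Sod1 and Sod2, catalase (Cat), the peroxiredoxins Prdx1, Prdx2, Prdx5 and Prdx6, the sulfiredoxin Srxn1, thioredoxin (Txn1) and thioredoxin reductase (Txnrd1). They were chosen by name, with earlier results of these data known, and are 10 genes of 49246 with a value in every library. All 10 were among the 10770 genes tested, which had a mean of at least 1 FPKM (fragments relative to transcript length and library depth). RNA was sequenced from bone marrow-derived macrophages of wild-type C57BL/6 mice. One group received 30 µM CBR-5884, which inhibits the serine synthesis enzyme PHGDH, before IL-4 (3 libraries, numbered 3, 4 and 5), and the other received solvent before IL-4 (2 libraries, numbered 3 and 5). Both groups had 10 ng/ml IL-4 for 24 h after 6 days of differentiation, in medium that held the thiol reductant β-mercaptoethanol, and no cells without IL-4 were analysed here. The comparison asks what the PHGDH inhibitor does to these genes in macrophages that respond to IL-4. Whether the numbered libraries stem from different mice or cultures is not in the labels. The p-values therefore rest on library-to-library spread, and that spread may be technical.

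Superoxide dismutases turn superoxide into hydrogen peroxide, which catalase breaks down in peroxisomes and peroxiredoxins reduce through a reactive cysteine. Thioredoxin returns most peroxiredoxins, once oxidised, to their active form and is itself reduced by thioredoxin reductase with NADPH. Sulfiredoxin repairs peroxiredoxin that was oxidised too far. Macrophages make superoxide with the phagocyte NADPH oxidase, and the transcription factor NRF2 is known to induce several of these genes, among them Prdx1, Srxn1 and Txnrd1.

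Under CBR-5884 the 3 libraries lay above both solvent libraries for Cat, Prdx1, Prdx6, Srxn1, Txn1 and Txnrd1, and below both for Prdx5. The groups overlapped for Sod1, Sod2 and Prdx2. None of the 10 passed limma's test at an adjusted p below 0.05 over all genes, a threshold that 0.0464% of the genes tested passed as higher and 0.176% as lower. At an unadjusted p below 0.05 in the same fit, 5 were higher and 1 lower, where 7.24% and 12.4% of all genes were. Every CBR-5884 library lay above both solvent libraries for 6 of the 10 and below both for 1, against 16.6% and 24.9% of all genes. The median log2 fold change of the 10 was 0.21, and that of all genes tested was -0.03. Because the 10 were chosen with earlier results of these data known, their counts and median describe the set and carry no test of it. Fold changes are CBR-5884 over solvent, taken on log2(FPKM + 1), and SE is the standard error from limma. In bulk RNA, fewer cells of a type and less RNA per cell cannot be told apart.

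**Figure D1:**
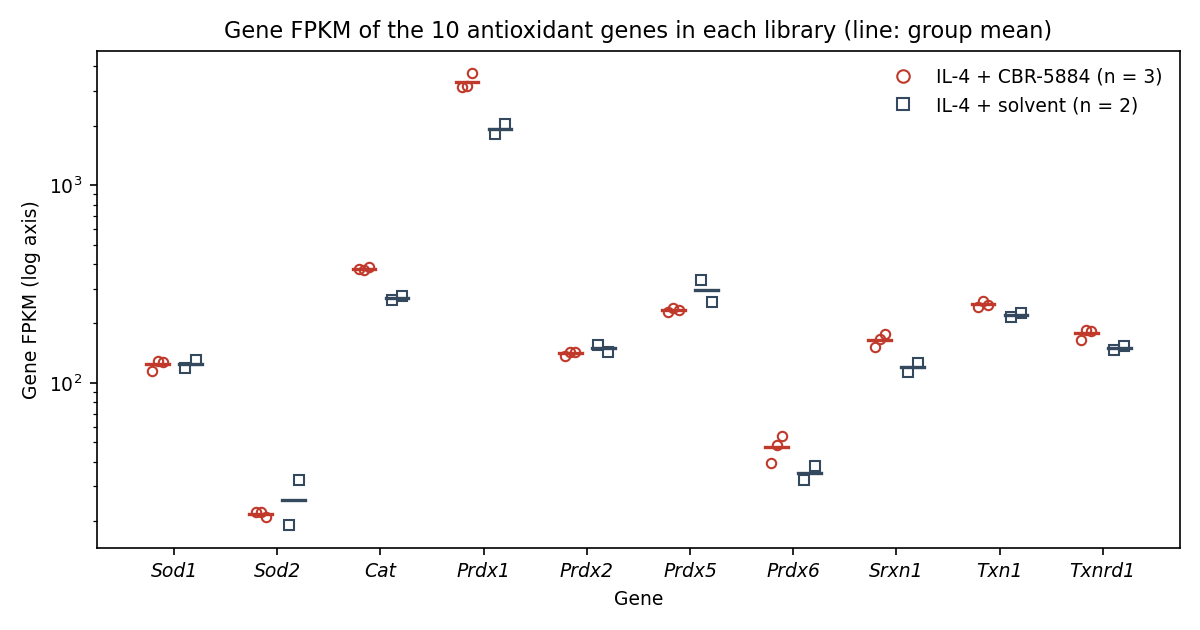
Gene FPKM on a log axis for each of the 10 genes, with circles for the 3 CBR-5884 libraries, squares for the 2 solvent libraries and a line at each group mean. Prdx1 is the most abundant in both groups, at a mean of 3342 FPKM under CBR-5884 and 1928 FPKM under solvent, and Cat shows narrow groups that do not meet.

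Catalase had the smallest p of the 10 genes. Cat (ENSMUSG00000027187, chromosome 2, 103453849 to 103485160, minus strand, GRCm38) was at 376, 374 and 386 FPKM under CBR-5884, against 262 and 275 FPKM under solvent. The groups lay apart by far more than either spread, with means of 379 ± 6.50 FPKM under CBR-5884 (SD, n = 3) and 269 ± 9.21 FPKM under solvent (SD, n = 2), a ratio of 1.41. The log2 fold change was 0.49 (SE 0.04, limma's adjusted p = 0.0614), short of the threshold. All of its FPKM came from a single reference transcript, Cat-201 (2613 nt), with no assembled transcript at the locus. The authors' 95% intervals for that transcript ran over 358 to 403 FPKM in the CBR-5884 libraries and 251 to 288 FPKM in the solvent libraries, so that none met between groups. Such intervals hold the estimation error of 1 library and no spread between libraries. Its coverage, at 75 bp per read, amounts to 29549 to 30989 fragments in each CBR-5884 library and 19782 to 20376 in each solvent library.

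Prdx1, a cytosolic peroxiredoxin and the most abundant gene of the set, had the largest fold change of the 10. Prdx1 (ENSMUSG00000028691, chromosome 4, 116685544 to 116700822, plus strand) was at 3139, 3199 and 3689 FPKM under CBR-5884, against 1818 and 2038 FPKM under solvent. The groups were well apart, and the means were 3342 ± 302 FPKM under CBR-5884 (SD, n = 3) and 1928 ± 156 FPKM under solvent (SD, n = 2). The log2 fold change was 0.79 (SE 0.10, limma's adjusted p = 0.0917). Both of its annotated transcripts in the files had every CBR-5884 library above solvent. The 877 nt transcript Prdx1-202 was at 2105, 2157 and 2447 FPKM under CBR-5884 and at 1229.9 and 1362 FPKM under solvent. The 2294 nt transcript Prdx1-204 was at 1034, 1042 and 1242 FPKM under CBR-5884 and at 202 and 387 FPKM under solvent. Only the solvent libraries also held an assembled transcript at the locus, of 2209 nt at 386 FPKM and of 2221 nt at 289.7 FPKM. Relative to the first base of Prdx1-202 these began at -10812 and -10799 nt, that is upstream. They made up 21.2% and 14.2% of the gene's FPKM there and are counted in the sums above. The processed pseudogenes Gm21399 and Gm7204 match Prdx1 over 597 nt at 98.32% and 97.49% identity. Gm7204 was at 7.73, 7.67 and 9.86 FPKM under CBR-5884 and at 4.06 and 4.90 FPKM under solvent. How reads shared with these copies were divided is not known, which leaves the value of Prdx1 uncertain to that extent.

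Prdx6, a peroxiredoxin that also has phospholipase activity, was less abundant. Prdx6 (ENSMUSG00000026701, chromosome 1, 161240112 to 161251219, minus strand) was at 39.3, 48.3 and 54.0 FPKM under CBR-5884, against 32.2 and 38.0 FPKM under solvent. The groups did not overlap but nearly met (log2 fold change 0.41, SE 0.16, limma's adjusted p = 0.268). With reference transcripts only the log2 fold change was 0.66, and with the most abundant one 0.115. Its split between transcripts varied by library: Prdx6-201 was at 16.1, 19.8 and 25.8 FPKM under CBR-5884, and at 14.5 FPKM and listed at 0 in solvent replicates 3 and 5.

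Prdx5, a peroxiredoxin of mitochondria, peroxisomes and cytosol, was the gene of the set whose CBR-5884 libraries lay below solvent. Prdx5 (ENSMUSG00000024953, chromosome 19, 6906697 to 6910106, minus strand) was at 228, 238 and 234 FPKM under CBR-5884, against 332 and 256 FPKM under solvent. The solvent libraries lay far apart, and an assembled transcript of 679 nt at 78.8 FPKM stood in solvent replicate 3 alone. The log2 fold change was -0.32 (SE 0.12, limma's adjusted p = 0.253), -0.13 without solvent replicate 3 (limma's adjusted p = 0.389) and -0.51 without solvent replicate 5 (limma's adjusted p = 0.15). Prdx5 shares 409 nt of exons with Trmt112 on the opposite strand. Trmt112, a partner of methyltransferases that all cells use, was listed at 0 in all 5 libraries. Which strand setting Cufflinks ran with is not given in the sources used here, and the value of Prdx5 is uncertain for that reason.

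Prdx2 (ENSMUSG00000005161, chromosome 8, 84969587 to 84974834, plus strand), another cytosolic peroxiredoxin, was at 136, 144 and 143 FPKM under CBR-5884, against 156 and 144 FPKM under solvent (log2 fold change -0.08, 95% interval -0.23 to 0.07, limma's adjusted p = 0.460). It shares 173 nt of exons with Junb and 177 nt with Rnaseh2a, both on the opposite strand, which leaves its value uncertain. Junb was at 92.5, 100.2 and 99.1 FPKM under CBR-5884, against 106.5 and 102.6 FPKM under solvent. Rnaseh2a was listed at 0 in all 5 libraries.

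Srxn1 restores overoxidised peroxiredoxins. Srxn1 (ENSMUSG00000032802, chromosome 2, 152105516 to 152111376, plus strand) was at 151, 167 and 176 FPKM under CBR-5884, against 113 and 126 FPKM under solvent. Every CBR-5884 library was above both solvent libraries (ratio of means 1.38, log2 fold change 0.46, SE 0.09, limma's adjusted p = 0.132). In CBR-5884 replicate 3 an assembled transcript of 2558 nt, beginning 2494 nt downstream of Srxn1-201, held 59.5 FPKM, or 39.3% of the gene's sum. With reference transcripts only that library stood at 91.9 FPKM, below both solvent libraries, and the log2 fold change was 0.22 (limma's adjusted p = 0.769).

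The thioredoxin pair showed smaller differences. Txn1 (ENSMUSG00000028367, chromosome 4, 57943373 to 57956411, minus strand), the cytosolic thioredoxin, was at 241, 259 and 249 FPKM under CBR-5884, against 217 and 227 FPKM under solvent. The groups did not overlap, and the log2 fold change was 0.17 (SE 0.05, limma's adjusted p = 0.201). Txnrd1 (ENSMUSG00000020250, chromosome 10, 82833951 to 82897712, plus strand), the selenoprotein that reduces it, was at 165, 186 and 184 FPKM under CBR-5884, against 146 and 154 FPKM under solvent. Its groups did not overlap either (log2 fold change 0.24, SE 0.07, limma's adjusted p = 0.192).

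Txnrd1 was the gene of the 10 with assembled transcripts in the most libraries, 4 of 5, together with large shares of FPKM in them. Its 1 annotated transcript in the files, Txnrd1-201 (3417 nt), was at 103, 35.5 and 85.1 FPKM under CBR-5884 and at 103 and 154 FPKM under solvent. Assembled transcripts held 37.4%, 80.9% and 53.7% of the gene's FPKM in the CBR-5884 libraries, against 29.3% and 0.0% in the solvent libraries. In CBR-5884 replicates 3, 4 and 5 they began 14955, 361 and 13747 nt downstream of the start of Txnrd1-201, and in solvent replicate 3 at the same base. With reference transcripts only, the log2 fold change of Txnrd1 turned to -0.88 (SE 0.53, limma's adjusted p = 0.516).

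**Figure D2:**
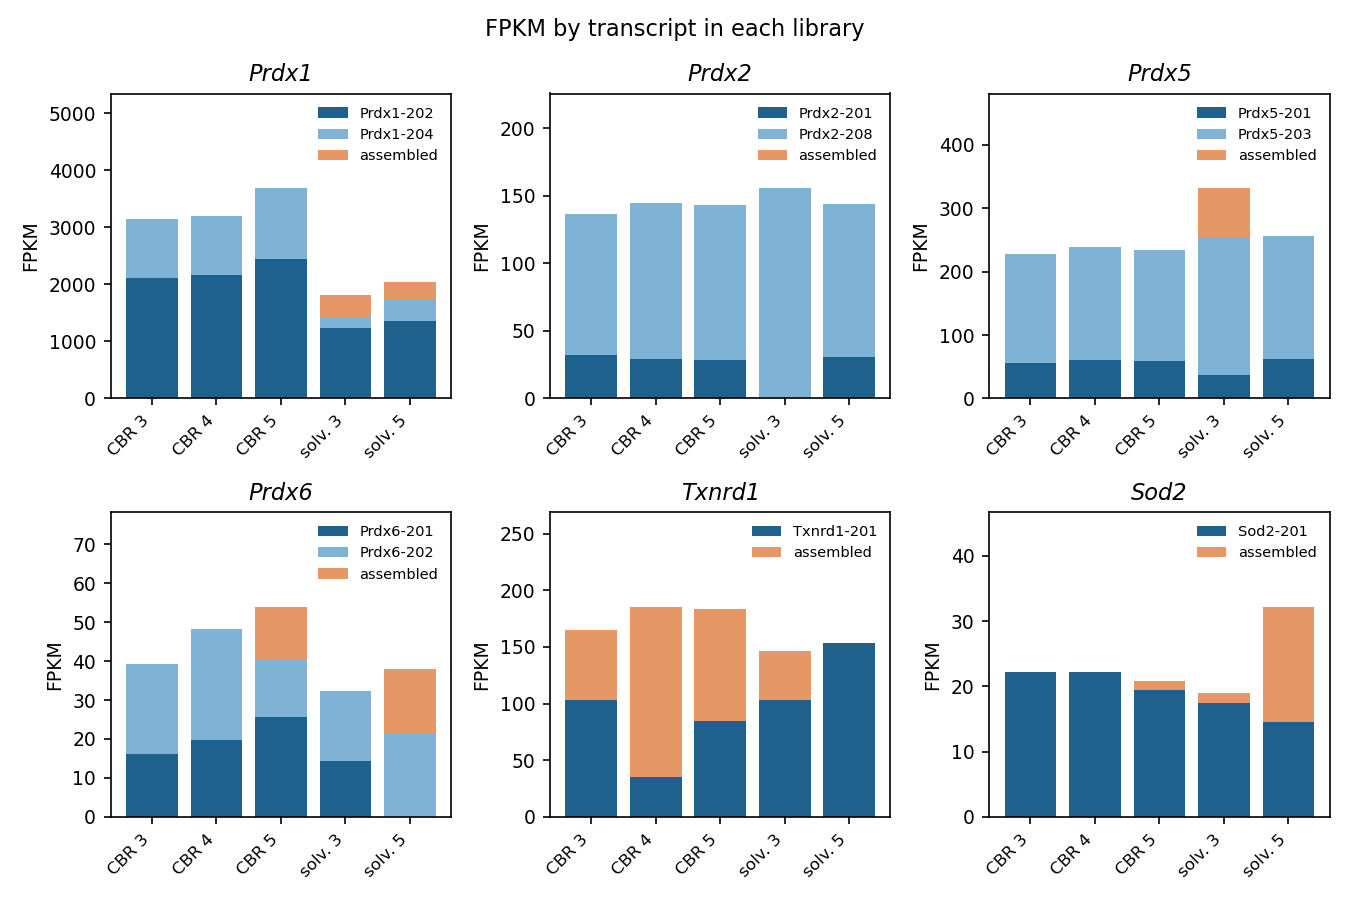
FPKM of each transcript, stacked per library, for 6 of the genes. Blue parts are annotated transcripts and orange parts are transcripts assembled from that library's reads; in Txnrd1 the orange part runs over 37.4% to 80.9% in CBR-5884 libraries, and in Sod2 it is 55.1% in solvent replicate 5.

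The superoxide dismutases, which supply hydrogen peroxide to the enzymes above, gave groups that overlapped. Sod1 (ENSMUSG00000022982, chromosome 16, 90220754 to 90226329, plus strand), the cytosolic copper-zinc enzyme, was at 115, 129 and 128 FPKM under CBR-5884, against 119.7 and 130.0 FPKM under solvent. Its log2 fold change was -0.01 with a 95% interval of -0.21 to 0.19 (limma's adjusted p = 0.948), which bounds a difference without showing that there was none. Under the scalings to TPM, by median ratios and by quantiles its sign was positive, at up to 0.05.

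Sod2 (ENSMUSG00000006818, chromosome 17, 13006846 to 13040063, plus strand), the manganese enzyme of mitochondria, was at 22.3, 22.2 and 20.9 FPKM under CBR-5884, against 19.1 and 32.2 FPKM under solvent. The highest and the lowest of the 5 values were the 2 solvent libraries (log2 fold change -0.18, SE 0.23, limma's adjusted p = 0.685). In solvent replicate 5 an assembled transcript of 777 nt, ending 18876 nt past Sod2-201, held 16.5 FPKM. Annotated transcript Sod2-201 alone (3824 nt) was at 22.3, 22.2 and 19.5 FPKM under CBR-5884 and at 17.5 and 14.5 FPKM under solvent. On it the groups did not overlap and the log2 fold change was 0.40 (SE 0.12, limma's adjusted p = 0.282). Stretches of up to 193 nt of Sod2 match 11 other genes at 95% identity or more, 5 of them above 1 FPKM, which leaves part of its value uncertain.

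Because a short and a long transcript with equal FPKM hold different numbers of reads, each gene was also summed as length-weighted FPKM, that is FPKM times transcript length in kilobases, which follows the number of fragments. This summary was chosen after the data were seen, depends less on how a gene's reads were split between transcripts, and compares libraries within a gene only. On it 2 of the 10 genes rose under CBR-5884 at an adjusted p below 0.05 in limma, where 0.965% of 11394 genes did, and 0 fell, where 1.89% did (2.85% in either direction). Cat was at 983, 978 and 1009 length-weighted FPKM under CBR-5884, against 686 and 719.7 under solvent, which kept its log2 fold change at 0.49 (SE 0.05, limma's adjusted p = 0.0171). Prdx1 was at 4218, 4282 and 4995 length-weighted FPKM under CBR-5884, against 2396 and 2725 under solvent (log2 fold change 0.81, SE 0.11, limma's adjusted p = 0.0280). In both genes the groups stood well apart. Srxn1 was next, at 411, 471 and 495 length-weighted FPKM under CBR-5884 and at 319 and 355 under solvent (limma's adjusted p = 0.0625).

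On this summary 7 genes had all CBR-5884 libraries above solvent and 2 below, against 17.9% and 27.6% of all genes. Here too the counts only describe a set that was chosen with earlier results known. Sod2 was at 85.2, 84.9 and 82.7 length-weighted FPKM under CBR-5884, against 76.1 and 75.4 under solvent, so that the order of its groups was the reverse of that of the summed FPKM means (log2 fold change 0.15, SE 0.04, limma's adjusted p = 0.105). Prdx5 had its CBR-5884 libraries below solvent again, at 201, 210.3 and 207 under CBR-5884 and 263 and 225 under solvent (log2 fold change -0.24, SE 0.07, limma's adjusted p = 0.112). Prdx2 was at 171, 179.0 and 178 length-weighted FPKM under CBR-5884, against 183 and 179.4 under solvent (limma's adjusted p = 0.586), with the nearest libraries almost equal. Prdx6, Txn1 and Txnrd1 kept their order, with log2 fold changes of 0.41, 0.17 and 0.23 (limma's adjusted p = 0.0993, 0.112 and 0.126).

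**Figure D3:**
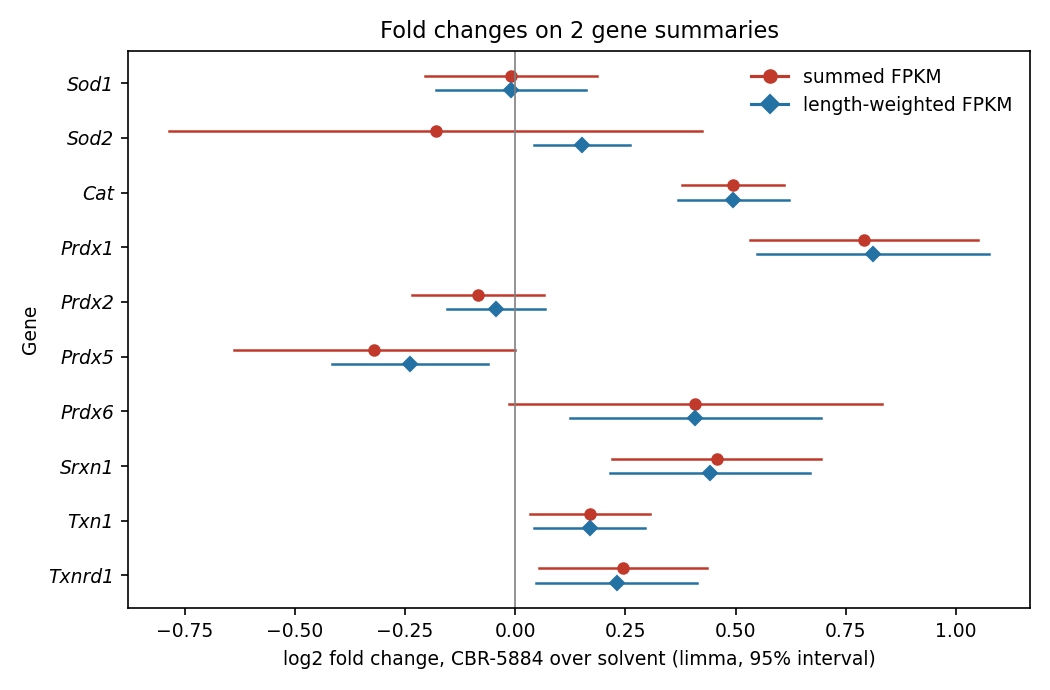
log2 fold change of CBR-5884 over solvent for each gene, with limma's 95% interval, from summed FPKM (circles) and from length-weighted FPKM (diamonds). Cat, Prdx1, Srxn1, Txn1 and Txnrd1 have intervals above 0 on both summaries, and Prdx5 has intervals below 0 on both. Sod2 lies at -0.18 with a wide interval on summed FPKM and at 0.15 on length-weighted FPKM, with an interval of 0.04 to 0.26. Prdx6 has an interval above 0 on length-weighted FPKM only.

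Per unit of transcript length, the 10 genes covered a wide range of levels. Under CBR-5884 the order by mean FPKM was Prdx1, Cat, Txn1, Prdx5, Txnrd1, Srxn1, Prdx2, Sod1, Prdx6 and Sod2, and among neighbours only Txnrd1 and Srxn1 had overlapping libraries. Under solvent Prdx5 stood above Cat and Srxn1 below Sod1, and the pairs Prdx5 and Cat, Txnrd1 and Prdx2, and Sod1 and Srxn1 had overlapping libraries. Sod2 was the lowest gene of both groups, at 21.8 ± 0.79 FPKM under CBR-5884 (SD, n = 3) and 25.6 ± 9.32 FPKM under solvent (SD, n = 2).

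Promoter windows from RefSeq (GRCm38.p6, 250 bases before to 50 after the transcription start) were matched by symbol for 9 of the 10 genes, 11 windows in all, and Prdx6 was not matched. They were searched on both strands for TGACNNNGC, the core of the antioxidant response element that NRF2 binds with small Maf proteins, and for TGANTCA, the core of AP-1 sites, which reads the same on both strands and can overlap the first. TGACNNNGC was in 4 of the 11 windows and in 12.39% of all 32851 windows of this length. TGANTCA was in 2 of the 11 windows and in 7.81% of all windows. The 4 windows with TGACNNNGC are shown. They belong to Prdx1, Srxn1 and Txnrd1, whose gene sums stood higher under CBR-5884, and to Sod1, whose groups overlapped. That of Cat is shown as the one with the smallest p and neither motif. Txn1, whose values also stood higher, had neither motif. Sequences run 5′ to 3′ along the gene's strand, and capitals mark every match to either motif.
Prdx1 (chr4:116685349-116685648, plus strand): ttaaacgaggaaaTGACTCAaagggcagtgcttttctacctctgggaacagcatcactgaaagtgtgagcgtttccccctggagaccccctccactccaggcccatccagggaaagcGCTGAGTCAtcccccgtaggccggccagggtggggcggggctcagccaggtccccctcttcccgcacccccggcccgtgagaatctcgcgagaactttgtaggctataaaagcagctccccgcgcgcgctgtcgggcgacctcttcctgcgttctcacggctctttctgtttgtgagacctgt
Srxn1 (chr2:152105274-152105573, plus strand): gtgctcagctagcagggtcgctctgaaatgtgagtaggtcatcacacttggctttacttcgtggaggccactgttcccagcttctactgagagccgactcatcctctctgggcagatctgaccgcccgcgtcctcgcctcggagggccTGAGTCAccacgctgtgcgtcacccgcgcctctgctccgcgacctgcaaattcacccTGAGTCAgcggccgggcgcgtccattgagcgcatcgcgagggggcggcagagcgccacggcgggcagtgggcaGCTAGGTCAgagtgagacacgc
Txnrd1 (chr10:82858956-82859255, plus strand): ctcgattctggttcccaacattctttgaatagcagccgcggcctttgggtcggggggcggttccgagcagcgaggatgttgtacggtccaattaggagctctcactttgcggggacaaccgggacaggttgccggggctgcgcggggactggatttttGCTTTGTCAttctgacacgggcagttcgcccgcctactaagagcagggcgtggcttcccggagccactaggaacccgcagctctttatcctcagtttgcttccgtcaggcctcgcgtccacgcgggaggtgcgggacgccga
Sod1 (chr16:90220512-90220811, plus strand): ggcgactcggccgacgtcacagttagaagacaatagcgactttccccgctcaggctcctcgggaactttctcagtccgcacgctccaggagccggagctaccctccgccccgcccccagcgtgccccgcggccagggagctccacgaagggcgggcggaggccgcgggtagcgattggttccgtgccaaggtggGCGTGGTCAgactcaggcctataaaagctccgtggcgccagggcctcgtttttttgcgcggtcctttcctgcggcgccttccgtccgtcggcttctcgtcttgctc
Cat (chr2:103485104-103485403, minus strand): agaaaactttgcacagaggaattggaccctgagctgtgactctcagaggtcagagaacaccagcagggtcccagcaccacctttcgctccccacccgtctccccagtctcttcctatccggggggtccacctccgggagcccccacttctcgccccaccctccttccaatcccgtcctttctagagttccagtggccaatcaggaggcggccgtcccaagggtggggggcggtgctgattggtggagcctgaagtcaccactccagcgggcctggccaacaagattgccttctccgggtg
In Prdx1 the TGACNNNGC match lies on the minus strand at positions -133 to -125 from the transcription start and holds a TGANTCA match at -131 to -125. Another TGANTCA match stands further upstream at -237 to -231. In Srxn1 the pair of TGANTCA matches lies at -102 to -96 and -45 to -39, and the TGACNNNGC match lies past the start, at 29 to 37. The Txnrd1 window shown is set on the start of Txnrd1-201 and has its match at -92 to -84, and Sod1 has its match at -56 to -48. Txnrd1-201 itself was not higher under CBR-5884, at 103, 35.5 and 85.1 FPKM, against 103 and 154 FPKM under solvent. The windows of Cat, Txn1, Prdx2, Prdx5 and Sod2 and the other 2 windows of Txnrd1 held neither motif, which says only that these letters are not in those windows, and a match is not a measured binding site.

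Genes around this system were described from 8 lists of 76 genes, also chosen with earlier results of these data known, with counts from summed FPKM. Over all genes tested 44.3% had a positive log2 fold change (51.5% on the TPM scale) and 0.0464% were called higher, which is the background for the counts that follow. Of the 11 tested genes of thioredoxins, glutaredoxins, their reductases and inhibitor, 0 passed the test, 4 were positive and 7 negative, with a median log2 fold change of -0.03. Txn2, the mitochondrial thioredoxin, was at 64.8, 68.5 and 68.4 FPKM under CBR-5884, against 76.2 and 73.5 FPKM under solvent (log2 fold change -0.15, limma's adjusted p = 0.217). All CBR-5884 libraries were below solvent for Txn2, unlike for the cytosolic Txn1. Txnrd2, the mitochondrial reductase, was listed at 0 in all 5 libraries and was not tested. Txnip, which binds and inhibits thioredoxin, was at 150.5, 184 and 189.9 FPKM under CBR-5884, against 147 and 183 FPKM under solvent, so its groups overlapped. Txnrd3, at 2.48 to 2.93 FPKM under CBR-5884 and 2.11 to 2.20 under solvent, and Nxn, at 1.54 to 1.70 FPKM under CBR-5884 and 2.03 to 2.18 under solvent, were near the filter.

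Among other peroxidases, 0 of 5 tested genes passed (Gpx1, Gpx3, Gpx4, Prdx3 and Prdx4), and the log2 fold change was negative in all 5. Their median of -0.03 was that of all genes, and Prdx4 turned positive on the TPM, median-ratio and quantile scales. Gpx1, the cytosolic glutathione peroxidase, was at 1090.3, 1132 and 1113 FPKM under CBR-5884, against 1370.3 and 1349 FPKM under solvent. Its groups were narrow and did not overlap (log2 fold change -0.29, SE 0.04, limma's adjusted p = 0.0999). With reference transcripts only its log2 fold change was -0.01 (SE 0.175, limma's adjusted p = 0.984), and with the most abundant one -0.04 (limma's adjusted p = 0.938). Prdx4, the peroxiredoxin of the endoplasmic reticulum, had overlapping groups, at 47.7, 46.7 and 46.2 FPKM under CBR-5884 and 45.9 and 49.8 FPKM under solvent. Gpx3 also overlapped, at 40.1 to 52.4 FPKM under CBR-5884 and 46.3 to 55.7 FPKM under solvent. Of Ccs, the copper chaperone of Sod1, and the extracellular Sod3, only Ccs was tested, at 15.7 to 17.03 FPKM under CBR-5884 and 16.3 to 17.7 FPKM under solvent.

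Of 7 tested clients of thioredoxin 0 passed, 3 were positive and 4 negative (median -0.015). The ribonucleotide reductase subunit Rrm2 was at 1.198, 1.655 and 2.05 FPKM under CBR-5884, against 6.15 and 6.10 FPKM under solvent (log2 fold change -1.45, SE 0.16, limma's adjusted p = 0.0857). Its partner Rrm1 was at 7.31, 8.28 and 8.03 FPKM under CBR-5884, against 10.7 and 11.2 FPKM under solvent (limma's adjusted p = 0.122). Both are also genes of dividing cells. The methionine sulfoxide reductases Msra and Msrb1 had log2 fold changes of -0.24 and 0.27 (limma's adjusted p = 0.276 and 0.285). Without solvent replicate 5 these were -0.15 and 0.15, and Msra was at -1.10 with reference transcripts only and -1.48 with the most abundant one.

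On the side of superoxide production, 0 of 6 tested genes of the phagocyte NADPH oxidase passed, with 3 positive and 3 negative (median log2 fold change 0.03). Cybb, its catalytic subunit, was at 275, 225 and 269 FPKM under CBR-5884, against 240.3 and 215 FPKM under solvent, with overlapping groups. Hvcn1, the proton channel that balances its charge, was at 139, 153 and 148 FPKM under CBR-5884, against 104 and 89.6 FPKM under solvent (log2 fold change 0.60, SE 0.09, limma's adjusted p = 0.107). With its most abundant reference transcript the log2 fold change was 0.325. Rac2, a small GTPase that activates the oxidase, had a log2 fold change of -0.12 (limma's adjusted p = 0.327), and Cyba was not analysed here.

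Peroxisomal genes other than Cat lay on both sides of 0. Of 23 tested genes of peroxisome biogenesis and oxidation 0 passed, 9 were positive and 14 negative, and the median log2 fold change was -0.045. The import factors Pex6, Pex2 and Pex14 had the smallest p, with log2 fold changes of -0.26, 0.21 and -0.18 (limma's adjusted p = 0.165, 0.191 and 0.199), and the abundant Scp2 had -0.02. Of 5 genes that make and insert selenocysteine, which Txnrd1 needs, 0 passed, 3 were positive and 2 negative. Sephs2 had the smallest p of these, at 20.93, 20.96 and 19.7 FPKM under CBR-5884, against 18.6 and 15.96 FPKM under solvent (limma's adjusted p = 0.228), while Sepsecs and Pstk overlapped between groups (limma's adjusted p = 0.633 and 0.813).

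On summed FPKM, the list of NRF2 regulators and known targets held the 1 related gene that passed. Of its 11 tested genes 1 rose, 0 fell and 10 did not pass, with 8 positive and a median log2 fold change of 0.14, against -0.03 over all genes. Gclm, the modifier subunit of glutathione synthesis, rose to 331, 345 and 329 FPKM under CBR-5884, against 224 and 212 FPKM under solvent (log2 fold change 0.62, SE 0.05, limma's adjusted p = 0.0479). With any 1 library left out it no longer passed (limma's adjusted p = 0.0825 to 0.188), and over all 18 alternative settings it passed in 5 (limma's adjusted p = 0.00526 to 0.331). Slc7a11, Nqo1 and Hmox1 had log2 fold changes of 0.75, 0.62 and 0.20 (limma's adjusted p = 0.120, 0.131 and 0.200), with all CBR-5884 libraries above solvent in each. Nfe2l2, the gene of NRF2 itself, had overlapping groups, at 114, 122 and 120.2 FPKM under CBR-5884 and 111 and 129 FPKM under solvent. On length-weighted FPKM, where 2.85% of all genes passed, more of the related genes named here passed than on summed FPKM. These genes were named largely for a small p in the same libraries, so their share cannot be compared with that of all genes. Gclm, Slc7a11, Nqo1 and Hvcn1 were then called higher (limma's adjusted p = 0.00526, 0.0289, 0.039 and 0.0273). Rrm1 and Rrm2 were called lower on it (limma's adjusted p = 0.0363 and 0.0219).

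**Figure D4:**
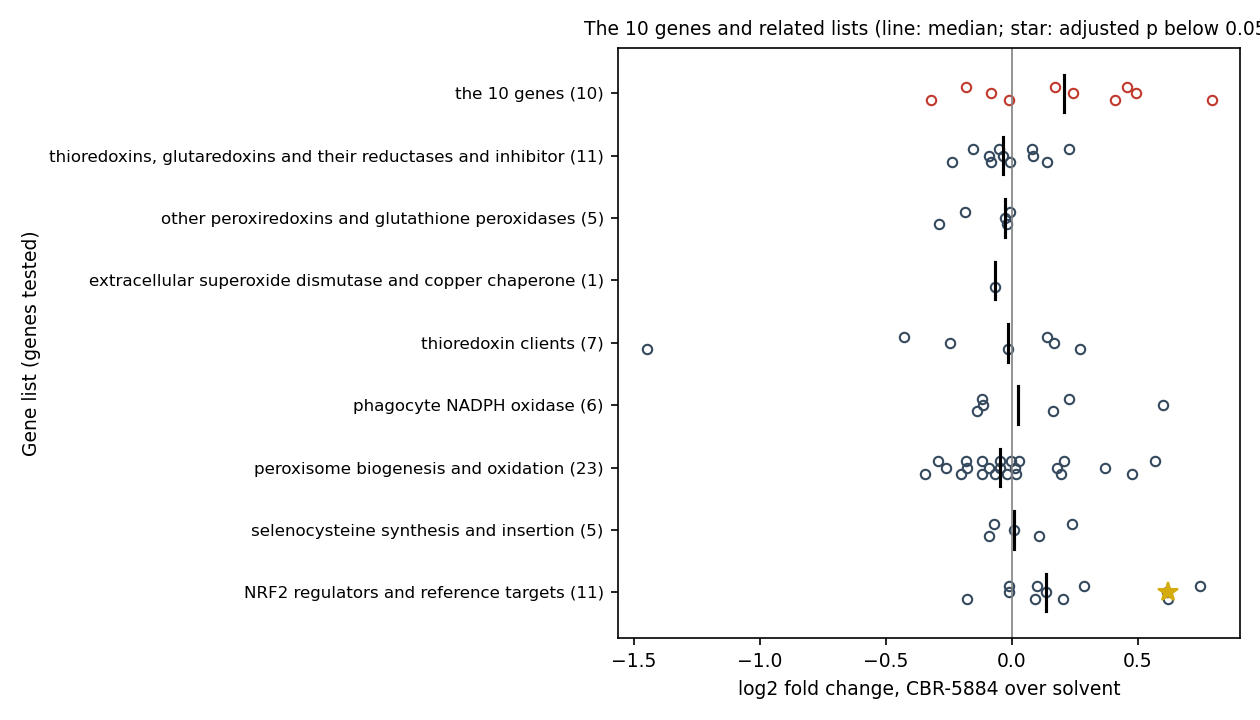
log2 fold change of CBR-5884 over solvent for every tested gene of the 10 genes (top row) and of the 8 related lists, with a line at each median and a star at an adjusted p below 0.05. Values are from summed FPKM. The medians of the related lists lie between -0.07 and 0.14, and the star is Gclm.

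The profile of Cat over the 5 libraries was nearest to those of Gpbp1l1, Ap3s1, Nudcd2, Alcam and Ankrd10 among 5823 other genes with a mean of at least 10 FPKM. Likeness was the Euclidean distance between log2(FPKM + 1) values centred on each gene's mean, which was 0.11, 0.11, 0.12, 0.12 and 0.13 for these genes. Ap3s1, for example, was at 106, 99.9 and 98.5 FPKM under CBR-5884, against 68.1 and 70.9 FPKM under solvent. With 5 libraries this ranks genes mainly by the step between groups and carries no test.

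The libraries held the equivalent of 30230000 to 30700000 fragments under CBR-5884 and 28310000 to 28850000 under solvent, from the ratio of coverage to FPKM. All 8 macrophage markers were above 1 FPKM in mean, with summed levels of 9740 to 13100 FPKM under CBR-5884 and 11000 to 13100 FPKM under solvent, mostly from Lyz2. Cd68 and Itgam had every CBR-5884 library above solvent, Cd14 and Fcgr1 had every one below, and none of the 8 passed the test. All 6 erythroid markers, globins included, were listed at 0 in every library. Since genes that all cells use, such as Trmt112, were also listed at 0, these zeros may be failed estimates, and a part of red cells in the values of Cat and Prdx2 was not tested. Neutrophil markers summed to 45.1 to 60.6 FPKM under CBR-5884 and 52.6 to 62.4 FPKM under solvent, mostly from Csf3r, with Ly6g and Retnlg at 0. Of 5 monocyte markers 2 were above 1 FPKM, Ccr2 and Chil3, and 1 of these passed the test. No marker of the other lists passed. Ccr2 was lower under CBR-5884 (3.45, 3.71 and 3.54 FPKM under CBR-5884, against 7.66 and 8.19 FPKM under solvent). Chil3, which IL-4 also induces, lay above solvent in every CBR-5884 library (1296, 1323 and 1077 FPKM under CBR-5884, against 939 and 899 FPKM under solvent). Dendritic, T and NK, and B cell lists had no marker above 1 FPKM in mean, with Cd3e, Cd3d and Ncr1 at 0, and the eosinophil and mast cell list had Siglecf alone. Fibroblast markers summed to 10.8 to 17.1 FPKM under CBR-5884 and 17.9 to 18.9 FPKM under solvent, from Col1a1 and Col1a2. The part of these other cells in the values of the 10 genes was not tested.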

How the data were processed

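Directional libraries of 5 RNA samples were read for 75 bp from 1 end, per the labels' protocols. The submitters' processing notes name Bowtie2, TopHat2, Cufflinks and the build mm10 (GRCm38); the annotation release, tool versions and strand setting: not given in the sources used here. The deposited values are FPKM with a 95% interval and a coverage per transcript, estimated by the authors' Cufflinks run separately for each library, both for Ensembl and for newly assembled transcripts. No scaling across libraries is recorded. A listed 0 may be an estimate that failed.

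Reference transcripts were assigned through GENCODE M21 (70828 to 70852 matched, of 71215 to 71239 per library). Assembled transcripts of at least 200 nt joined the gene on their strand (bedtools 2.31.1) that held at least 50% of their exonic bases. Transcripts left unassigned held 64.0% to 70.3% of the summed FPKM but 8.6% to 10.2% of covered bases. Gene FPKM is the sum over assigned transcripts, tested as log2(FPKM + 1) at a mean of at least 1 with limma 3.58.1 (variance trend, two-sided, Benjamini-Hochberg over all genes tested), in R 4.3.3. The log scale with a pseudocount of 1 understates changes of low genes. The fit was run on simulated data with known changes and independent noise, which checks only that its mean estimates return those changes. The run does not bear on errors that the genes of a library share. Near-identical copies were sought with blastn 2.17.0 (95% identity over at least 150 nt). Libraries of a group were no copies of each other: 30.7% to 33.5% of transcripts above 10 FPKM had intervals that did not meet. The 10 genes and the lists were chosen with earlier results of these data known. Named are all 10 genes and, per related list, genes called, the 3 with the smallest p and the most abundant; the 5 genes most like Cat were named by distance. One gene that this rule names is not reported here. Cell type markers, Nfe2l2 and genes listed at 0 or under the filter were named after their values were seen. The alternatives were 18 settings (pseudocount, filter, scaling, transcript choice, limma options, replicate block, 1 library left out, and length-weighted FPKM, which was added after the data were seen).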

Additional observations from a re-analysis of the deposited data

How the results depend on the processing

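Over 18 alternatives Cat, Prdx1, Prdx6, Srxn1 and Txn1 stayed positive and Prdx2 and Prdx5 negative, with log2 fold changes of 0.46 to 0.56 for Cat, 0.71 to 1.07 for Prdx1, 0.12 to 0.66 for Prdx6, 0.22 to 0.54 for Srxn1, 0.14 to 0.21 for Txn1, -0.25 to -0.03 for Prdx2 and -0.51 to -0.13 for Prdx5. The count of the 10 genes called higher was 0 as reported, 1 (Cat) on the TPM scale, with median ratios and with quantile normalization (limma's adjusted p = 0.0461, 0.0478 and 0.0364), and 2 (Cat and Prdx1) as length-weighted FPKM; none was called lower in any setting. When 1 library was left out, Cat had limma's adjusted p = 0.122 to 0.205 and Prdx1 0.173 to 0.232; the lone solvent library is then assumed to vary like the other group.

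Txnrd1 reversed to -0.883 and Sepsecs to 0.384 with reference transcripts only and with the most abundant one; Sod2 reversed to 0.396 in both and to 0.152 as length-weighted FPKM. On the TPM scale, with median ratios and with quantile normalization, Sod1 was 0.034, 0.029 and 0.048, Prdx4 0.017, 0.012 and 0.030, and Scp2 0.027, 0.022 and 0.029; Scp2 was 0.012 as length-weighted FPKM. Leaving out 1 library gave -0.069 to 0.049 for Sod1, -0.545 to 0.184 for Sod2, -0.084 to 0.031 for Prdx4, -0.038 to 0.003 for Scp2, -0.184 to 0.045 for Pstk and -0.078 to 0.242 for Txnip. Apart from the construction of each setting, the cause was not tested.

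Over all genes limma called 5 higher and 19 lower. The number lower was 11 with a pseudocount of 0.1 and 33 with no filter. The number higher was 3 with a pseudocount of 5, 19 with reference transcripts only and 14 with the most abundant one. Counts were 3 higher and 6 lower at a mean of at least 5 FPKM, and 110 higher and 215 lower as length-weighted FPKM. Leaving out 1 library gave 8 to 11 higher and 11 to 78 lower. At an unadjusted p below 0.05 in limma the split was 780 higher and 1334 lower, 1170 and 1017 on the TPM scale, 1091 and 1003 with median ratios and 1163 and 945 after quantile normalization. Replicate numbers 3 and 5 are shared by both groups, and same-numbered libraries barely deviated together (r = 0.070 and 0.082 over genes). The deviations of the 2 solvent libraries mirror each other by construction, so these r cannot settle whether the libraries are paired. The replicate block called 2 genes higher and 1 lower, and 0 of the 10.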
